A study of Rattus norvegicus with 8 samples.

Results

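The dual specificity MAP kinase phosphatases described here are the products of 8 genes, Dusp1, Dusp2, Dusp4, Dusp5, Dusp6, Dusp7, Dusp10 and Dusp14, chosen by symbol from the annotation of the array. Of these, 7 genes were measured, on 8 of the 45220 features of the array and among 14871 named genes. Dusp6 had 2 features and the other measured genes had 1 each. No feature carried the symbol Dusp14, whose level is not analysed here. RNA came from the hippocampus of male Wistar rats aged 13 weeks, in 4 ICSS pools and 4 Sham pools of 3 rats each. All rats carried an electrode aimed at the lateral hypothalamus, and hippocampi were taken from the side of the electrode. In intracranial self-stimulation (ICSS) a rat works for trains of current that are rewarding. ICSS rats took 2500 trains on the day after the last of their training sessions of 20 min. Sham rats were handled alike and spent 40 min in the same box without current. All pools carried Cy5 and met the same Cy3 pool of rat brain RNA, the common reference. Values below are taken as log2 of pool over reference. No source used here states the base, and the folds rest on it. The labels of the reference name hippocampus, thalamus and cortex, while the design text names hippocampus alone. The reference drew on rats of both groups and cancels between them. How long after the session tissue was taken is not stated in the labels.

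Mitogen-activated protein (MAP) kinases, the ERK, JNK and p38 families, are switched on by phosphorylation of a threonine and a tyrosine in their activation loop. Dual specificity phosphatases of the MKP type remove both phosphates and so end the signal, and many of their genes are themselves induced by MAP kinase activity, which closes a negative feedback loop. Dusp1, Dusp2, Dusp4 and Dusp5 encode inducible nuclear enzymes. Dusp6 and Dusp7 encode cytoplasmic enzymes that prefer ERK. The product of Dusp10 acts mainly on JNK and p38, and Dusp14 encodes a small atypical enzyme without the kinase-binding domain of the others. In neurons, ERK signalling follows calcium entry and neurotrophin receptors, and Dusp5 is also known as Cpg21, a name from a screen for genes induced by activity in the rat dentate gyrus.

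Control regions of the 2 genes whose ratios lay farthest from the reference, Dusp5 above it and Dusp1 below it, are shown because they differ in the response elements they hold. Each run is the RefSeq sequence of assembly GRCr8 from 250 bases before to 50 bases after the annotated start of the gene, on the + strand. Capitals mark matches to any of 4 motifs searched on both strands: the full cAMP response element (CRE) TGACGTCA, its half-site TGACG, the AP-1 site TGANTCA and the CArG box, the element bound by serum response factor. A half-site inside a full CRE was counted in both classes.
Dusp5, chr1:262543524-262543823: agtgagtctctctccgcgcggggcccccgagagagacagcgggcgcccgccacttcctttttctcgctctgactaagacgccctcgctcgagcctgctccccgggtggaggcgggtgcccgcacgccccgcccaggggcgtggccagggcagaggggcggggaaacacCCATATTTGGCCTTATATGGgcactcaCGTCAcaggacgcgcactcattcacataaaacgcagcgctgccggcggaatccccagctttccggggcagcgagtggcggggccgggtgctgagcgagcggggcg
Dusp1, chr10:17184603-17184902: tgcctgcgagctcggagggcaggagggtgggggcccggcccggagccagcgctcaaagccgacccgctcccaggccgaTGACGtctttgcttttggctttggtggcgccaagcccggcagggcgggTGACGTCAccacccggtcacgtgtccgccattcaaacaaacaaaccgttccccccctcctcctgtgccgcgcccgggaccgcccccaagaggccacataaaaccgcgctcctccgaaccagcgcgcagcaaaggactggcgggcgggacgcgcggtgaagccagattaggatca
The Dusp5 window held 2 CArG boxes side by side, from -82 to -73 and from -72 to -63 relative to the start, and 1 CRE half-site, from -55 to -51, with no full CRE and no AP-1 match. The Dusp1 window held 1 full CRE, from -124 to -117, and a separate half-site from -172 to -168, with no CArG box and no AP-1 match. Among 33469 promoter windows of the same length, 1.64% held a CArG box, 1.83% a full CRE, 21.2% a half-site and 7.33% an AP-1 match. The table held windows for 7 of the 8 genes. The windows of Dusp6, Dusp7 and Dusp10 had no match to any of the 4 motifs, and that of Dusp2 had 1 half-site. Dusp14 had 3 windows, of which 1 held a half-site and an AP-1 match. These matches describe the letters of the windows and are no measurement of binding.

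Array medians ran from -0.032 to 0.016, and pairs of arrays correlated at 0.586 to 0.873. The array least like the others was Sham replicate 4, whose correlations ran from 0.586 to 0.779, and its oligodendrocyte list (5 of 6 markers measured) had a median log2 ratio of -1.01, against -0.22 to 0.40 in the ICSS pools and -0.097 to 0.16 in the other Sham pools. Choroid plexus markers (5 of 5 measured) had medians of -0.56 to 0.079 in ICSS pools. In Sham replicate 1 their median was 1.03, against -1.07 to -0.72 in the other Sham pools. Microglia markers (6 of 6 measured) were also highest there, at a median of 0.47. Their medians were -0.24 to 0.10 in the other Sham pools and -0.36 to -0.035 in ICSS pools. The hippocampal neuron list, with 7 of its 8 markers measured, lay above the reference in every pool, at medians of 0.30 to 0.78 in ICSS pools, against 0.64 to 0.92 in Sham pools, and the thalamic list, with 6 of 7 measured, lay below it in every pool. By mean, all 6 microglia markers were lower and all 6 measured thalamic markers higher in ICSS pools, and none was called. Of all named genes, 52.6% were higher. In tissue pools, fewer cells of a type and less RNA per cell cannot be told apart. Precision is limited by the small number of arrays, and ratios alone do not tell whether a gene was expressed.

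ICSS was set against Sham to see which of these feedback phosphatases differ after self-stimulation. None of the 7 measured genes passed the threshold, a Benjamini-Hochberg adjusted p of 0.05 in limma over 34738 genes and unnamed probes. Dusp5 had the largest difference, 1.44-fold higher in ICSS pools, and in it alone of the 7 did the ICSS and Sham pools not overlap. The other 6 differed by -0.15 to 0.14 on the log2 scale. Over all units the same fit called 16, or 0.0461% (0.0259% higher and 0.0202% lower), and 4392, or 12.6%, had an unadjusted p below 0.05, as did 1 of the 7 genes. Groups did not overlap in 7.80% of all units. Feature by feature, 0.117% of the 45220 features were called and 8.27% had groups without overlap; of the 8 features of these genes none was called and the Dusp5 feature alone was without overlap. ICSS means exceeded Sham means in 6 of the 7 genes, and the median difference was 0.081, against 52.6% of all named genes and a median of 0.0069.

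**Figure D1:**
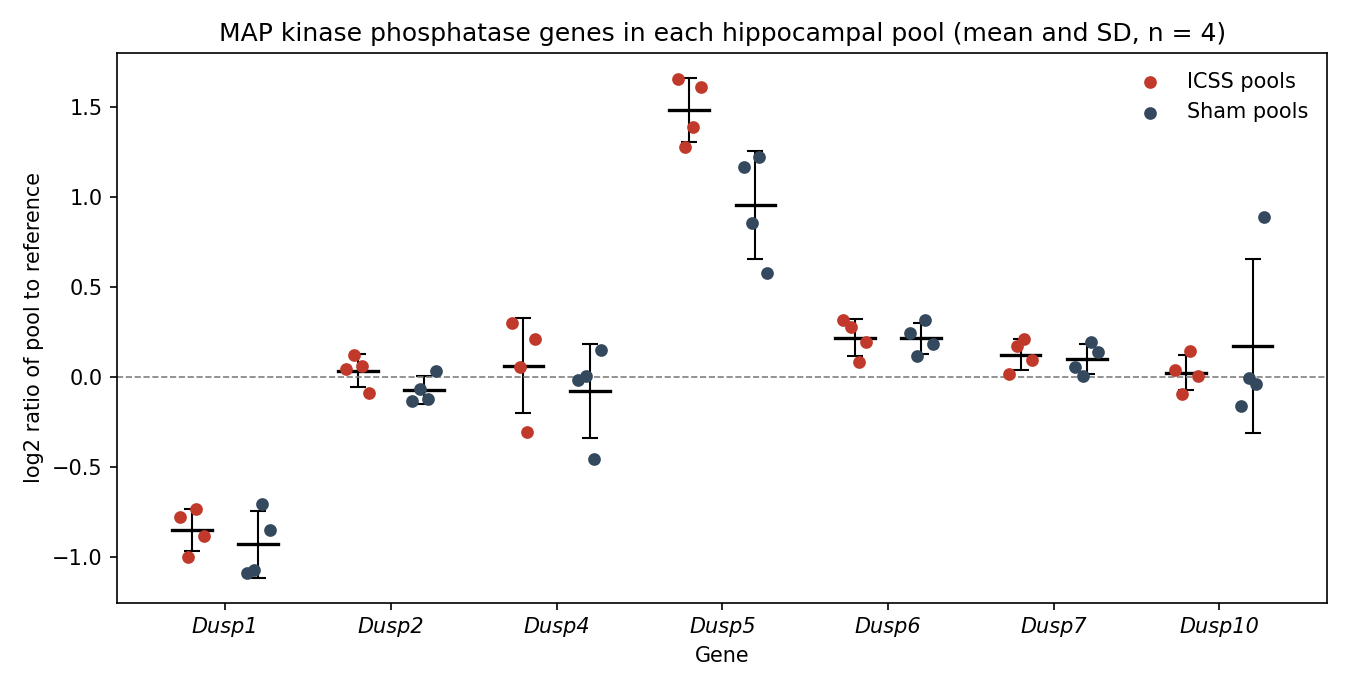
Log2 ratio of each pool to the common reference (vertical axis) for the 7 measured MAP kinase phosphatase genes (horizontal axis), ICSS pools in red and Sham pools in dark blue, with the mean and SD of 4 pools in black. Dusp5 lay above the reference in every pool and higher in ICSS pools, Dusp1 lay below it in every pool, and Dusp10 had a high value of 0.89 in Sham replicate 4.

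Dusp5, whose nuclear product dephosphorylates ERK and holds it in the nucleus, was at 1.65, 1.28, 1.39 and 1.61 in ICSS replicates 1 to 4, against 1.17, 0.85, 1.22 and 0.57 in Sham replicates 1 to 4. The lowest ICSS pool, replicate 2, lay 0.054 above the highest Sham pool, replicate 3, so the groups were apart by a narrow margin, and Sham replicate 4 was the lowest of all. The means were 1.48 ± 0.18 in ICSS and 0.95 ± 0.30 in Sham pools (± SD over 4 pools a group), a difference of 0.53 (SE 0.14, 95% interval 0.20 to 0.85). The unadjusted limma p was 0.00458 and the adjusted p was 0.198, so the difference did not pass. By size of rise the gene ranked 92 among the 14871 named genes, and by p it ranked 803 among all units. All ICSS pools lay above all Sham pools in 4.13% of units, so this pattern was not rare on these arrays.

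Without Sham replicate 4, the array that stood apart and that had the lowest oligodendrocyte median, the difference of Dusp5 was 0.40 (SE 0.12, 95% interval 0.14 to 0.66, limma adjusted p = 0.303). The part of tissue composition in the difference was not tested. With each array left out in turn the difference lay between 0.40 and 0.62, and its limma adjusted p between 0.172 and 0.390. Relative to the reference, Dusp5 was 2.79-fold higher in ICSS and 1.94-fold higher in Sham pools. Its mean over the 8 pools exceeded those of 99.7% of named genes.

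Dusp1 encodes MKP-1, the immediate early phosphatase that acts on p38, JNK and ERK. It stood at -0.78, -0.999, -0.74 and -0.89 in ICSS replicates 1 to 4, against -1.09, -1.08, -0.71 and -0.85 in Sham replicates 1 to 4. The groups overlapped fully, with every ICSS pool below the highest Sham pool. The difference was 0.081 (SE 0.097, 95% interval -0.14 to 0.30, limma adjusted p = 0.760), an interval that spans 0.910 to 1.23 as a ratio of ICSS to Sham. It was 0.028 without Sham replicate 1 and 0.16 without Sham replicate 3. The gene was lower than the reference in all 8 pools, and its mean over them exceeded those of 1.20% of named genes. The activity-regulated transcription factor genes Egr1 and Fos also lay below the reference in both groups. Egr1 was at -1.07 ± 0.083 in ICSS and -1.04 ± 0.13 in Sham pools. Fos was at -0.59 ± 0.11 in ICSS pools, against -0.73 ± 0.077 in Sham pools (all ± SD over 4 pools a group). Not all activity-regulated genes were low. Npas4 had means near the reference, -0.066 in ICSS and -0.12 in Sham pools, and Bdnf lay above it, at 1.20 and 0.73.

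Dusp2, the gene of the nuclear phosphatase PAC-1, known mainly from activated immune cells, was at 0.044, 0.12, 0.061 and -0.093 in ICSS replicates 1 to 4, against -0.13, -0.068, -0.12 and 0.033 in Sham replicates 1 to 4. The first 3 ICSS pools lay above every Sham pool and ICSS replicate 4 lay among the Sham pools. The difference was 0.11 (SE 0.066, 95% interval -0.040 to 0.25, limma adjusted p = 0.533).

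Dusp4, which encodes the nuclear enzyme MKP-2, varied more within groups. Its values were 0.30, 0.051, -0.31 and 0.21 in ICSS replicates 1 to 4 and -0.017, 0.0050, -0.46 and 0.15 in Sham replicates 1 to 4. Replicate 3 was the lowest pool of both groups, and 2 ICSS pools lay above the highest Sham pool. The difference was 0.14 with an SE of 0.15, against a median SE of 0.076 over all units, and its 95% interval ran from -0.20 to 0.48 (limma adjusted p = 0.728).

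**Figure D2:**
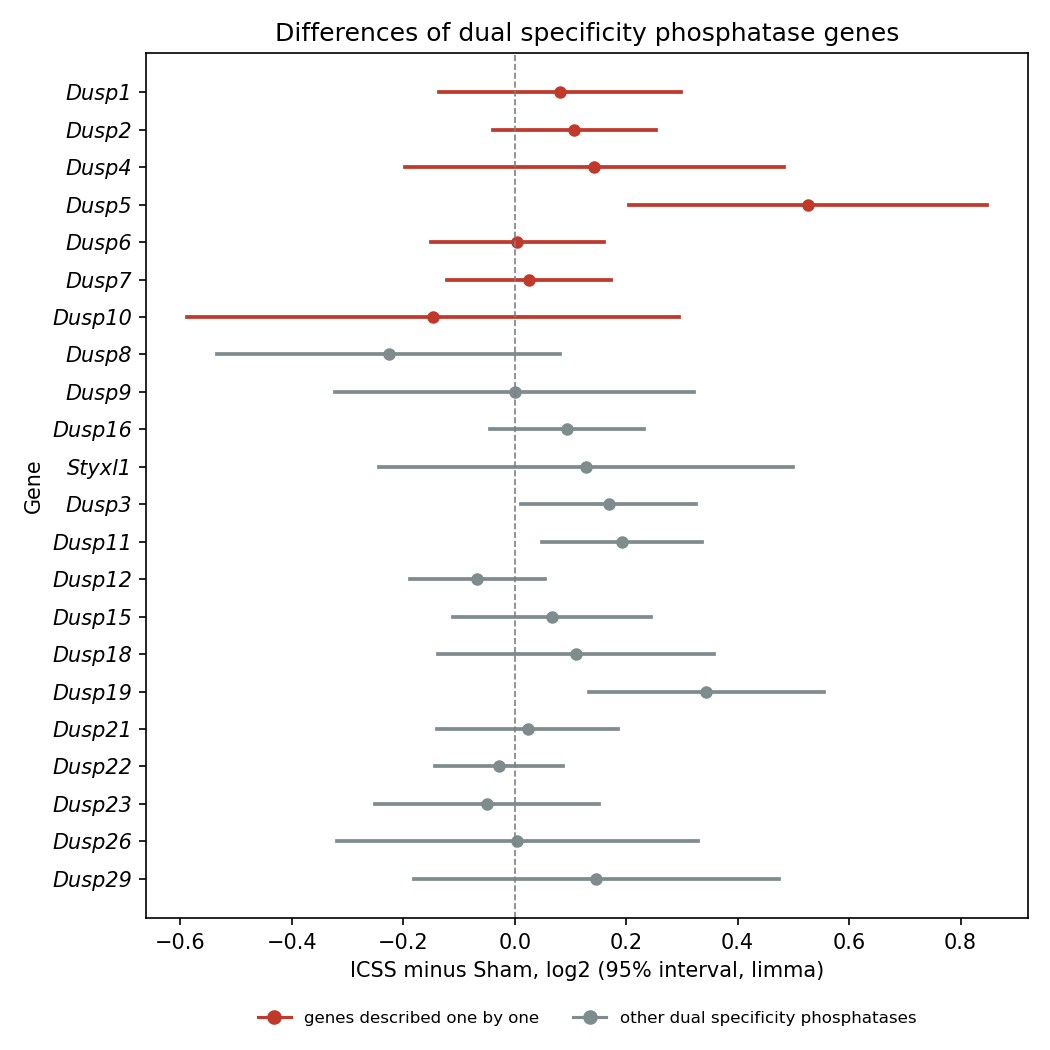
Difference of ICSS minus Sham on the log2 scale (horizontal axis) with its 95% interval from limma, for the 7 measured MAP kinase phosphatase genes (red) and 15 other dual specificity phosphatase genes (grey). The intervals of Dusp5, Dusp3, Dusp11 and Dusp19 lie above 0 before adjustment for the number of units. None of the 22 genes passed the adjusted threshold. The 4 features of Dusp3 differ by 0.018 to 0.34, and without Sham replicate 4 its interval runs from -0.030 to 0.27.

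Dusp6 encodes MKP-3, the cytoplasmic phosphatase that binds ERK and a common readout of fibroblast growth factor signalling. The mean of its 2 features was 0.31, 0.28, 0.083 and 0.19 in ICSS replicates 1 to 4, against 0.24, 0.11, 0.31 and 0.18 in Sham replicates 1 to 4. Both groups covered the same range, with a difference of 0.0047 (SE 0.070, 95% interval -0.15 to 0.16, limma adjusted p = 0.983). The interval leaves room for ratios of ICSS to Sham between 0.901 and 1.12. The sign of so small a difference turned with array scaling, at -0.0093 to -0.0057 in the 3 scalings tried.

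The 2 features of Dusp6 did not move together in every pool. Feature 27926 was at 0.13 ± 0.070 in ICSS and 0.18 ± 0.14 in Sham pools, and feature 41069 at 0.31 ± 0.17 in ICSS pools, against 0.24 ± 0.23 in Sham pools (± SD over 4 pools a group). In Sham replicate 4 the first was at 0.39, its highest pool, and the second at -0.026, its lowest. The differences of ICSS minus Sham were -0.056 (SE 0.079) and 0.065 (SE 0.12), opposite in sign and both within their error.

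Dusp7, the gene of the related cytoplasmic enzyme MKP-X, was at 0.015, 0.17, 0.21 and 0.091 in ICSS replicates 1 to 4, against 0.052, 0.0064, 0.19 and 0.14 in Sham replicates 1 to 4. Every pool lay slightly above the reference and the groups overlapped. The difference was 0.026 (SE 0.066, 95% interval -0.12 to 0.17, limma adjusted p = 0.897).

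Dusp10, which encodes MKP-5, was at 0.036, -0.094, 0.14 and 0.0026 in ICSS replicates 1 to 4, against -0.16, -0.0093, -0.040 and 0.89 in Sham replicates 1 to 4. Sham replicate 4 lay far above the other 7 pools, which held between -0.16 and 0.14. The difference was -0.15 (SE 0.20, 95% interval -0.59 to 0.30, limma adjusted p = 0.789) and turned to 0.092 (SE 0.074, adjusted p = 0.695) without that pool. In Sham replicate 4 Dusp5 had its lowest value and Dusp10 its highest.

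Ordered by mean ratio to the reference, ICSS pools had Dusp5 first at 1.48, then Dusp6 at 0.22, Dusp7 at 0.12, Dusp4 at 0.062, Dusp2 at 0.033, Dusp10 at 0.022 and Dusp1 at -0.85. Sham pools had Dusp5 at 0.95, Dusp6 at 0.21, Dusp10 at 0.17, Dusp7 at 0.096, Dusp2 at -0.073, Dusp4 at -0.080 and Dusp1 at -0.93. The middle 5 genes overlapped with their neighbours in both orders, and only the ends, Dusp5 and Dusp1, stood clear of the rest in the ICSS pools. A ratio to the reference is not a transcript level and does not rank the genes by abundance.

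Across the 8 pools the 7 genes did not follow each other closely. Over the 21 pairs the Pearson correlation of log2 ratios ranged from -0.65, between Dusp4 and Dusp7, to 0.54, between Dusp1 and Dusp7, with a median of 0.15. With the mean of each group taken off, it ranged from -0.82, between Dusp2 and Dusp5, to 0.58, between Dusp2 and Dusp10. For Dusp2 and Dusp5 it was 0.042 before that step. Among all other named genes, those most like Dusp5 by Pearson correlation over the 8 pools were Gem, which encodes a small GTPase that inhibits calcium channels (r = 0.959), and Rab10, which encodes a GTPase of vesicle transport (r = 0.957). Gem differed by 0.21 (SE 0.078, limma adjusted p = 0.316) and Rab10 by 0.099 (SE 0.053, limma adjusted p = 0.475). Dusp1 was most like Htr7, a serotonin receptor gene (r = 0.968), and Klhl25 (r = 0.934). For Dusp2 they were Krt5 (0.988) and Pdia6 (0.955), for Dusp4 Bin2a (0.960) and Maml1 (0.958), for Dusp6 Or8b43b (0.949) and Psd2 (0.940), for Dusp7 Il12a (0.958) and Or11h4c (0.951), and for Dusp10 Or12k5 (0.991) and Siah2 (0.985). Each is among the 2 highest of the correlations with all other named genes, over 8 pools that share the reference, and is a description only. Like Dusp10, Or12k5 and Siah2 had their highest values in Sham replicate 4, at 0.72 and 0.45. Their correlations with Dusp10 without that pool were not computed.

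Dusp5 was set beside Arc, Nptx2 and Crem pool by pool. Arc, a synaptic plasticity gene, was at -0.40 in ICSS replicate 1 and at 0.93 to 1.25 in the other ICSS pools, against -0.63 to -0.15 in Sham pools. Nptx2, the gene of a secreted protein that clusters AMPA receptors, was at -0.35 in ICSS replicate 1 and at 0.81 to 1.18 in the other ICSS pools, against -0.57 to -0.030 in Sham pools. In that same pool, ICSS replicate 1, Dusp5 had its highest value of all 8 pools, 1.65. Other activity-regulated genes were split in that pool. Bdnf (1.04), Sik1 (-0.26) and Crem (0.28) lay above their highest Sham pools, at 0.79, -0.55 and -0.28. Inhba (-0.15) and Gadd45b (0.062) lay only just above theirs, at -0.18 and 0.054. Fos, Egr1 and Npas4 lay within their Sham ranges. Arc and Nptx2 differed by 1.18 (SE 0.31) and 1.03 (SE 0.29) and did not pass with all arrays, at limma adjusted p of 0.192 and 0.209. Without ICSS replicate 1, the pool in which both were low, both passed (limma adjusted p = 0.00226 and 0.00670). That omission raised the calls over all units from 16 to 153, so passing there was not particular to these genes. The pool was singled out by their values, so their passing is a description only. Dusp5 did not pass with any of the 8 arrays left out.

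The gene of the cAMP-responsive factor Crem ranged from 0.28 to 0.65 in ICSS pools and from -0.34 to -0.28 in Sham pools, a rise of 0.78 (SE 0.077, limma adjusted p = 0.0134). Its adjusted p rose above the threshold without ICSS replicate 2 or 3 or Sham replicate 1 or 3, at 0.0549 to 0.0902, and without moderation of the variances, at 0.160. With a replicate block the adjusted p of Crem was 0.0895. This gene was the 1 called gene of the 10 activity-regulated comparison genes, against 0.0461% of all units called. Of the 10 genes 9 were higher, against 52.6% of all named genes. Their median difference was 0.66, against 0.0069 for all named genes. These 10 genes were chosen with earlier results of these data known, so their count and median are a description only. Fos and Npas4 differed by 0.14 and 0.049 (limma adjusted p = 0.453 and 0.815).

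**Figure D3:**
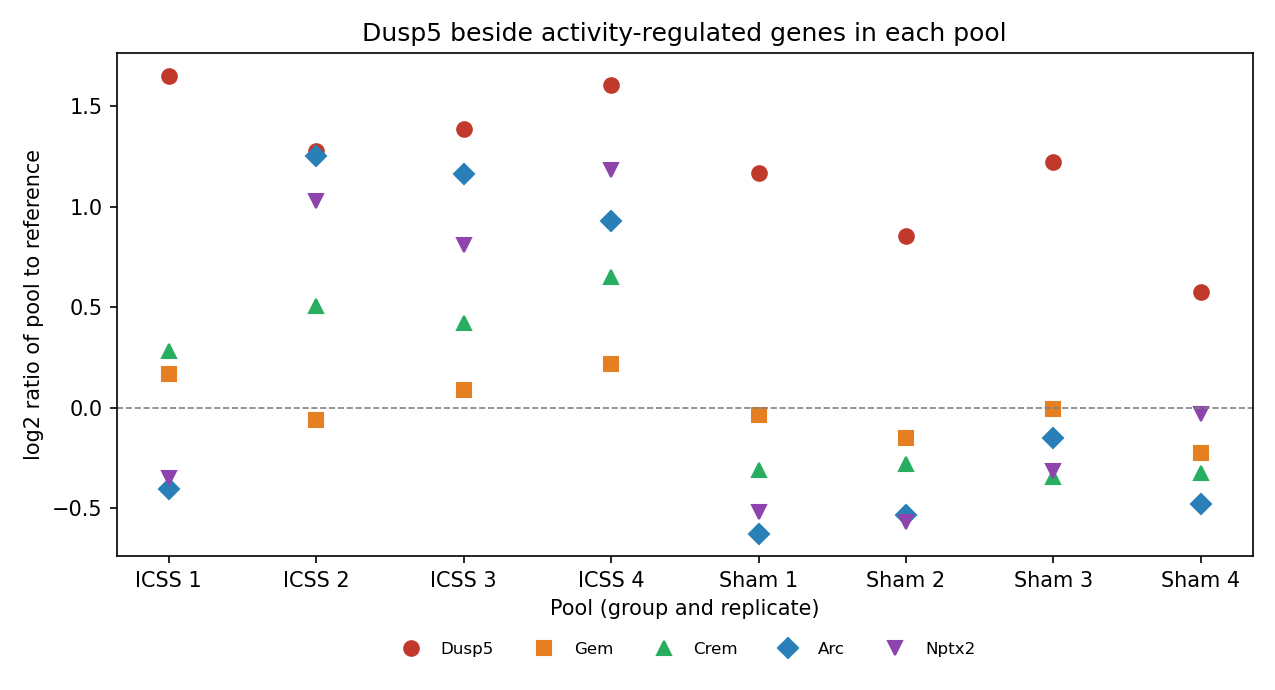
Log2 ratio to the reference (vertical axis) of Dusp5, Gem, Crem, Arc and Nptx2 in each of the 4 ICSS and 4 Sham pools (horizontal axis). In ICSS replicate 1 Dusp5 has its highest value, 1.65, and Arc and Nptx2 are close to Sham levels, at -0.40 and -0.35. Crem, at 0.28 in that pool, is above all its Sham pools.

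None of the remaining dual specificity phosphatases passed the threshold. Of 4 further genes of the MKP type, counting the inactive relative Styxl1, 2 were higher and 2 lower, and none was called. Dusp8, the gene of a phosphatase of JNK and p38 found in brain, differed by -0.23 (SE 0.14) and Dusp16, the gene of another JNK phosphatase, by 0.094 (SE 0.062), at adjusted p of 0.528 and 0.557 from limma. Dusp8 was at 0.33 in ICSS replicate 4 and at -0.20 to -0.13 in the other ICSS pools, against -0.093 to 0.37 in Sham pools. Without ICSS replicate 4 its difference was -0.35 (SE 0.11, limma adjusted p = 0.297).

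Of 14 atypical genes 11 were measured, 8 of them higher and none called, with a median difference of 0.067. Dusp19, whose product acts on the JNK pathway, was at 0.15, 0.53, 0.48 and 0.35 in ICSS replicates 1 to 4, against -0.12, 0.12, 0.15 and -0.0053 in Sham replicates 1 to 4. All ICSS pools lay above all Sham pools, with ICSS replicate 1 only just above Sham replicate 3, and the difference of 0.34 (SE 0.094, limma adjusted p = 0.198) did not pass. Dusp11, which encodes an RNA phosphatase, differed by 0.19 (SE 0.064, limma adjusted p = 0.281), again without overlap of the groups. Over all 22 measured genes of the family, 3 had all ICSS pools above all Sham pools and none the reverse, against 4.13% and 3.66% of all units.

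The kinases on which these phosphatases act were covered in part. Of 14 MAP kinase genes 10 were measured, 6 higher and 4 lower, with a median difference of 0.017 and none called. Mapk4, an atypical member, differed by 0.16 (SE 0.078, limma adjusted p = 0.432) and Mapk10, the JNK gene most restricted to neurons, by -0.18 (SE 0.094, limma adjusted p = 0.462).

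Among the 7 MAP kinase kinase genes, which encode the enzymes that phosphorylate MAP kinases, 4 were lower and 3 higher, with a median difference of -0.18 and none called. Map2k3, an activator of p38, was at -0.46, -0.27, -0.27 and -0.44 in ICSS replicates 1 to 4, against -0.61, -0.50, -0.77 and -0.63 in Sham replicates 1 to 4. Its difference of 0.27 (SE 0.074, limma adjusted p = 0.201) had every ICSS pool above every Sham pool. Map2k2, an activator of ERK, was at -0.25, -0.14, -0.18 and -0.095 in ICSS replicates 1 to 4, against 0.015, -0.025, -0.0031 and 0.075 in Sham replicates 1 to 4. Here every ICSS pool lay below every Sham pool, with a difference of -0.18 (SE 0.056, limma adjusted p = 0.242). Map2k1, the other activator of ERK, and Map2k6, another activator of p38, were chosen after their values were seen. They differed by -0.24 (SE 0.084) and -0.25 (SE 0.082), also without overlap, at adjusted p of 0.294 and 0.259 from limma. Without Sham replicate 4 these 2 differences were -0.17 each. Of the 7 genes 4, in place of 5, then kept an unadjusted limma p below 0.05, against 13.1% of all named genes with all arrays. With all arrays 1 of the 7 genes was higher and 3 were lower without overlap, against 4.13% and 3.66% of all units. Map2k5, also lower, differed by -0.22 (SE 0.084, limma adjusted p = 0.319) with overlapping groups.

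**Figure D4:**
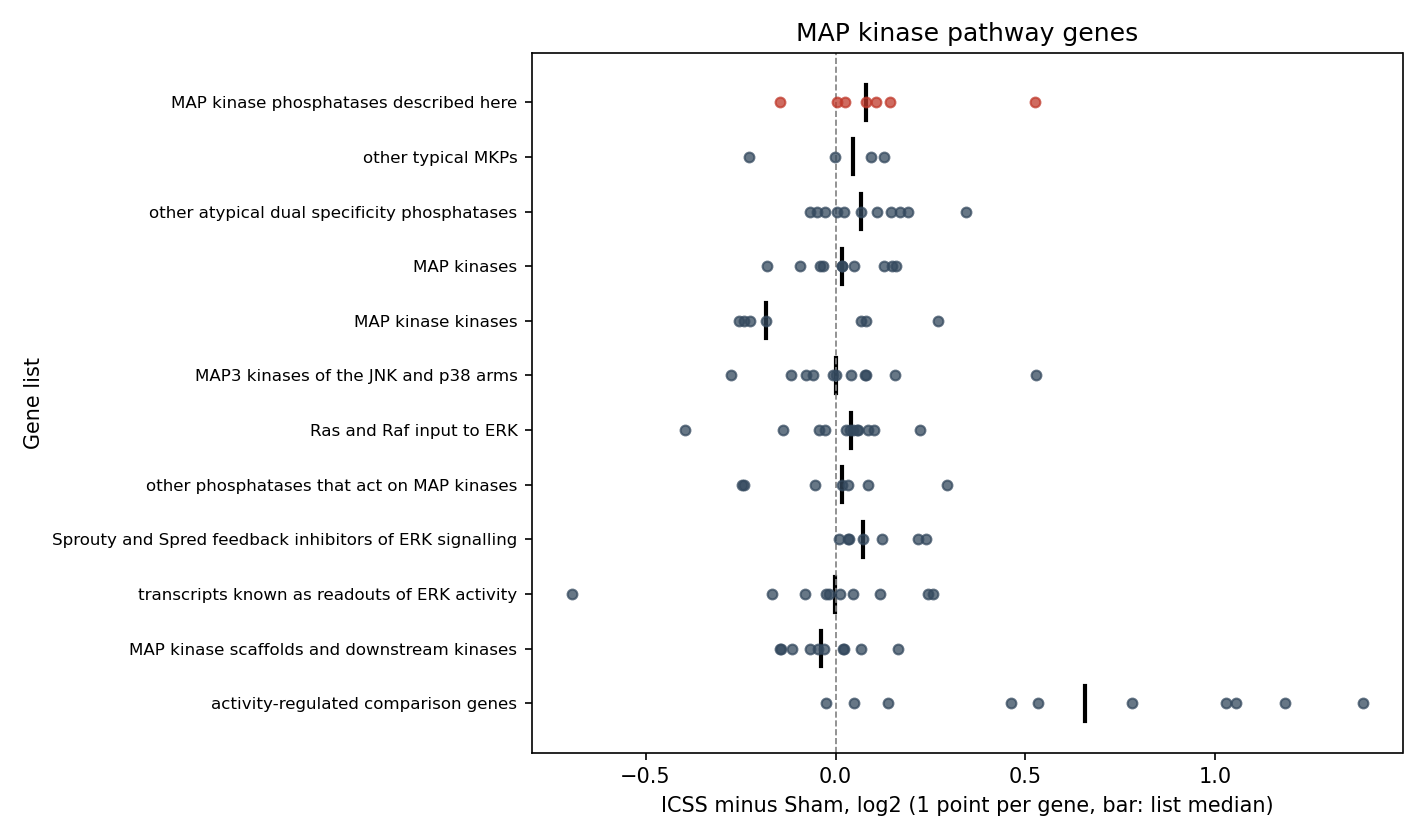
Difference of ICSS minus Sham on the log2 scale (horizontal axis) for each measured gene, by gene list (vertical axis), with the list median as a bar. The median is -0.18 for MAP kinase kinases and between -0.038 and 0.081 for the other MAP kinase pathway lists. The activity-regulated comparison genes have a median of 0.66. The lists were chosen with earlier results of these data known, so this contrast is not independent of the data.

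Upstream of the MAP kinases, 11 of 12 genes of kinases that feed JNK and p38 were measured, 6 higher and 5 lower. Map3k6, a stress-activated kinase gene, was at -0.96, -0.98, -0.99 and -0.66 in ICSS replicates 1 to 4, against -1.40, -1.50, -1.37 and -1.43 in Sham replicates 1 to 4. The groups lay well apart, and the difference of 0.53 (SE 0.081, limma adjusted p = 0.0707) was as large as that of Dusp5 with a smaller error. It passed without ICSS replicate 1 (adjusted p = 0.0484) and with no other array left out. Map3k12, the gene of a neuronal kinase of axonal injury signalling, differed by -0.28 (SE 0.072, limma adjusted p = 0.186).

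Of 17 genes of Ras and Raf input to ERK 12 were measured, 8 of them higher, with a median difference of 0.042 and none called. Rasgrf1, which encodes a calcium-responsive Ras activator of neurons, differed by -0.40 (SE 0.13, limma adjusted p = 0.252) and Grb2, an adaptor gene, by 0.22 (SE 0.081, limma adjusted p = 0.311). The 3 features of Grb2 differed by 0.082 to 0.42.

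Sprouty and Spred proteins are other brakes on the pathway. All 7 measured genes of this list, with Errfi1 counted among them, were higher in ICSS pools by mean, by 0.0097 to 0.24, against 52.6% of all named genes, and none was called. The count was 6 higher and 1 lower with median centring, with equal spread, and without ICSS replicate 3 or Sham replicate 1, and 5 higher and 2 lower without Sham replicate 2. Their median difference was 0.073, against 0.0069 for all named genes. The 2 genes of smallest p in the list were Spry2 and Spred1. Spry2, an inhibitor of receptor signalling to ERK, differed by 0.24 (SE 0.070, limma adjusted p = 0.224). Spred1, which restrains Ras and Raf, differed by 0.22 (SE 0.060, limma adjusted p = 0.202). In these 2 of the 7 genes all ICSS pools lay above all Sham pools, as in 4.13% of all units. Of 7 genes of other phosphatases that act on MAP kinases 4 were higher and 3 lower. Ppm1b, a serine and threonine phosphatase gene, differed by 0.29 (SE 0.066, limma adjusted p = 0.153) with all 3 features higher, and Ptprr, a tyrosine phosphatase gene of ERK, by -0.25 (SE 0.10, limma adjusted p = 0.372).

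Transcripts known elsewhere as readouts of ERK activity were split, with 5 of 10 higher, a median difference of -0.0016 and none called. Fosl1, an AP-1 gene, differed by 0.24 (SE 0.076, limma adjusted p = 0.246) and Ier3, an early response gene, by -0.69 (SE 0.28, limma adjusted p = 0.348). Ier3 stood at 1.31 in Sham replicate 4, the pool in which Dusp10 was also high, and its difference was -0.36 (SE 0.12) without it. Of 12 scaffold and downstream kinase genes 10 were measured, 6 of them lower, and none was called. Mknk2, a kinase gene downstream of ERK and p38, differed by -0.15 (SE 0.062) and Mapkapk2, a kinase gene downstream of p38, by 0.16 (SE 0.076), at adjusted p of 0.373 and 0.411 from limma. In all, 89 of the 105 genes of the pathway lists other than the comparison list were measured. Of these, 53 were higher and 36 lower in ICSS pools. They include Egr1, which the comparison list also holds. None of these 89 was called.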

How the data were processed

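The deposited values are log2 ratios, Cy5 pool over Cy3 reference by the dyes in the labels, for 45220 features on 8 arrays, none missing. Per the submitters' processing notes limma was used (version not given). No source used here states the background correction, the normalization, the filters or the base of the logarithm; log2 was assumed because limma works in it. No dye was swapped. Features were named through the platform annotation and Entrez identifiers in the GRCr8 gene table: 25353 had 1 symbol, 48 several and 19819 none. Features were averaged per gene (14871), and 19867 unnamed probes were kept, 34738 units in all.

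ICSS was compared with Sham with limma 3.58.1 under R 4.3.3, by a two-sided moderated test without covariates. P-values were adjusted over all units by Benjamini-Hochberg, and 0.05 was the threshold. Intervals are at 95%, from the moderated SE, before adjustment. Every feature was also fitted as its own unit. The labels call the pools biological replicates. The fit was tested on simulated data with independent noise and changes larger than those of the member genes. Recovery of differences of their size was not tested. The genes and lists were chosen with earlier results of these data known, so lists were only counted. Named genes are the members, the called genes of each list or else the 2 of smallest p, the 2 genes most correlated with each member, and Arc, Nptx2 and Crem. Outside this rule Map2k1, Map2k5, Map2k6, Dusp3, Egr1, Fos, Npas4, Bdnf, Sik1, Inhba and Gadd45b were named after their values were seen. Styxl1 and Errfi1 were named only to say what their lists hold.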

Additional observations from a re-analysis of the deposited data

Results flagged for a closer look

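In 3 of 60 groups of 4 pools checked, 1 pool lay far from the other 3, by Dixon's 95% limit for 4 values. Chance flags about 1 group in 20. Dusp10 was at 0.89 in Sham replicate 4, where the other Sham pools held -0.16 to -0.0093. Dusp8 was at 0.33 in ICSS replicate 4, where the other ICSS pools held -0.20 to -0.13. Map3k6 was at -0.66 in ICSS replicate 4, where the other ICSS pools held -0.99 to -0.96. Over all units 6.02% of groups passed the same limit. Among named genes 907 did so in the Sham group, 411 of them through Sham replicate 4.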

How the results depend on the processing

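No member gene was called under any alternative run, namely 3 array scalings, a replicate block, array weights, robust or no moderation, 3 choices of unit and each array left out. Of 16 calls over all units, 0 were left with the replicate block and 0 without moderation (4543 and 3998 at an unadjusted p below 0.05), and there were 34 with array weights, 53 with every feature as a unit and 0 to 153 with an array left out. Omitting ICSS replicate 1 gave 153, omitting replicate 2 or 3 of ICSS gave 0, and omitting replicate 4 gave 6; omitting Sham replicate 1 or 3 gave 1, replicate 2 gave 10 and replicate 4 gave 14. Feature calls, 53 with all arrays, were 1 with the replicate block and 1 to 287 with an array left out. The 1 call in the pathway lists, Crem, became 0 with the replicate block (adjusted p = 0.0895; 0.160 without moderation) and 0 to 7 with an array left out, 7 without ICSS replicate 1. Same-numbered pools did not deviate together (r = -0.053 to 0.058 over units, and 0 of 4 matched best with their own number), so the numbers were not read as pairs. Dusp6 turned to -0.0079 with median centring, -0.0093 with equal spread, -0.0057 with quantile normalization and -0.0027 with array weights. With an array left out Dusp6 lay between -0.028 and 0.049, Dusp7 between -0.0043 and 0.061 and Dusp10 between -0.26 and 0.092. Feature 27926 of Dusp6 lay between -0.091 and 0.014, feature 41069 between -0.024 and 0.15. Dusp1, Dusp2, Dusp4 and Dusp5 kept their sign throughout, Dusp4 falling to 0.017 without Sham replicate 3 and Dusp1 ranging from 0.028 without Sham replicate 1 to 0.16 without Sham replicate 3. The causes were not tested. Scalings, the block and the omission of arrays for the pathway lists were added after the data were seen.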
